A study of Mus musculus with 40 samples.

Results

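The heat shock and endoplasmic reticulum (ER) chaperones described here are 10 genes of the liver count table chosen by name. They are the heat-inducible HSP70 genes Hspa1a and Hspa1b, the constitutive HSP70 gene Hspa8, the cytosolic HSP90 genes Hsp90aa1 and Hsp90ab1, the co-chaperone genes Dnajb1 and Hsph1, the small heat shock protein gene Hspb1, the ER chaperone gene Hspa5, and the cold-inducible RNA binding protein gene Cirbp. All 10 of 10 were found among the 55487 genes of the table, and all 10 were among the 20297 genes that passed the filter on low counts. The RNA came from whole livers of female mice on the C57BL/6JBomTac strain background, aged 9 weeks when purified control diet (PD) feeding began. Hepatocyte-specific Nampt knockout (HNKO) mice carried Nampt fl/fl and Alb-Cre +/-, so that Cre was driven by the albumin promoter and only hepatocytes were targeted, and WT mice were floxed littermates. Nampt makes the NAD+ precursor nicotinamide mononucleotide. Every mouse ate PD, and livers were taken on day 3, 6, 12, or 21 of feeding (the labels give these days as the age). The groups held 5 WT and 5 HNKO livers at day 3, 4 and 5 at day 6, 5 and 6 at day 12, and 5 and 3 at day 21.

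Chaperones bind unfolded stretches of other proteins and help them to fold. In the cytosol, heat or other protein damage releases the transcription factor HSF1, which binds heat shock elements and switches on Hspa1a, Hspa1b, Dnajb1, Hsph1, and Hspb1, whereas Hspa8 and Hsp90ab1 are made at high levels without stress. In the ER, the HSP70 protein encoded by Hspa5 (BiP) holds the sensors of the unfolded protein response and is itself induced through ER stress elements, and hepatocytes, which secrete most plasma proteins, hold much of it. Cirbp belongs to a different class, since it rises in the cold and falls in the warm, and its level follows the daily rhythm of body temperature.

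The promoters show which members carry these elements, and 4 of them are shown here as examples, namely the inducible HSP70 pair, the small heat shock protein, and the ER chaperone. Promoter sequences of 7 of the 10 members were in the RefSeq table (GRCm38.p6), and 250 bases before each start were searched on both strands for the heat shock element, spelled GAANNTTC or TTCNNGAA. These letters were present in 12.8% of 32851 promoters of that length. The longer form with 3 units, GAANNTTCNNGAA or TTCNNGAANNTTC, was in 0.466% of promoters and in none of the members' windows. The ER stress element, spelled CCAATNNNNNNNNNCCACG, was in 0.113% of promoters and in the window of 1 member, Hspa5, at position -65 from the start. That start is the RefSeq one. In the GENCODE annotation the gene begins earlier, at chr2:34771970, so that the site lies within the annotated gene. In the sequences below, 5′ to 3′ on the gene's own strand, capitals mark the heat shock element, or the ER stress element for Hspa5. Hspa1a is shown from chr17:34972157-34972406 (minus strand), Hspa1b from chr17:34959239-34959488 (minus strand), Hspb1 from chr5:135887669-135887918 (plus strand), and the site of Hspa5 with 5 bases on each side from chr2:34772020-34772048 (plus strand).
Hspa1a: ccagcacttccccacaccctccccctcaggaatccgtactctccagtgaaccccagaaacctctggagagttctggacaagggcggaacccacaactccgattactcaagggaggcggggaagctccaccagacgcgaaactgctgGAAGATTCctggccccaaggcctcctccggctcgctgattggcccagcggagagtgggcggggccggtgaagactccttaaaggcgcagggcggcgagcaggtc
Hspa1b: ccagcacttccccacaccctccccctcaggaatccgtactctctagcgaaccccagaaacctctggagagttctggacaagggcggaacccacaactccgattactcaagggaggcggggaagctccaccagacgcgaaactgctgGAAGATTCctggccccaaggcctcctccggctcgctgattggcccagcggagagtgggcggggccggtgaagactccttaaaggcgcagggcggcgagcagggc
Hspb1: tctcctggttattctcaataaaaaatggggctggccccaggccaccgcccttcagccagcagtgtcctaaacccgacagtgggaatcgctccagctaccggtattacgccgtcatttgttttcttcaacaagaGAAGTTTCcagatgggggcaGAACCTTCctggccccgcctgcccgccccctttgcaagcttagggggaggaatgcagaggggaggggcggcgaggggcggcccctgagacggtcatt
Hspa5: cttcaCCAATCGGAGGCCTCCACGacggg
The promoters of Hspa1a and Hspa1b were identical at 247 of 250 bases, and both had the element at position -104 from the start. Hspb1 held the element at 2 places, positions -117 and -97. Hsph1, which has 2 starts in the table, held it at position -33 from one and -54 from the other. The windows of Dnajb1 and Cirbp held none of these letters. A match is a description of the sequence, and binding was not measured.

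The 38 libraries used held 16151037 to 64181492 counts each (median 26466478). Nampt itself had log2 CPM (counts scaled to a common library total) from 5.84 to 7.28 in the 19 WT libraries and from 4.92 to 6.36 in the 19 HNKO libraries, of which 17 were below all WT libraries. Its log2 fold changes at days 3, 6, 12, and 21 were -0.93, -0.90, -0.82, and -0.69 (edgeR adjusted p = 0.0193, 0.0128, 0.0208, and 0.161). The hepatocyte markers were present in every library, and the summed level of the 5 bile duct markers was higher in HNKO livers at every day (differences of 1.92 to 2.87 log2, adjusted p = 0.0476, 0.0476, 0.0476, and 0.0519 at days 3, 6, 12, and 21, exact permutation tests over 24 comparisons). Of the 5 stellate cell markers, 4, 4, 1, and 3 rose at days 3, 6, 12, and 21. The summed hepatocyte markers differed by -0.42, -0.59, -0.28, and -0.32 (adjusted p = 0.0519, 0.0519, 0.0519, and 0.227, exact permutation tests) and the summed leukocyte markers by 0.05, 0.61, 0.43, and 0.42 (adjusted p = 0.779, 0.0519, 0.0563, and 0.0918, exact permutation tests). Whole liver was sequenced, so that fewer cells of a type and less RNA per cell cannot be told apart.

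The members spanned a wide range of expression. Compared per kilobase of exon, the constitutive chaperones were the most abundant, with median CPM per kilobase of 182 for Hsp90ab1, 137 for Hspa5, and 108 for Hspa8 over the 38 libraries. Their ranges over libraries overlapped (107 to 233, 77.0 to 267, and 73.1 to 154). Hsp90aa1, the inducible HSP90 isoform, followed at 17.2 CPM per kilobase. Cirbp stood at 8.26 CPM per kilobase, Dnajb1 at 4.45, Hspb1 at 4.14, and Hsph1 at 2.60. The ranges of Dnajb1 (3.21 to 5.84) and Hspb1 (2.27 to 7.51) overlapped each other. The inducible HSP70 genes were the lowest, at 0.505 CPM per kilobase for Hspa1b and 0.0670 for Hspa1a. Counts were divided by the full exon length, although the genes share sequence with other genes to unequal degrees. The share of 51-base stretches (the read length) also found in other genes was 0% for Hspa5, Hsph1, and Cirbp. It was 39.1% for Hspa8, 47.3% for Hsp90aa1, 49.9% for Hspb1, and 66.1% for Hspa1a. The part of this sharing in the order of the members was not tested.

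No member was called different between HNKO and WT livers at any of the 4 days. The comparison asks which genes changed with loss of Nampt in hepatocytes as PD feeding went on. With edgeR's quasi-likelihood test and an adjusted p under 0.05 over all tested genes, 0 of 10 members were called at day 3, where 4.66% of all genes were called, 0 of 10 at day 6 (12.8% of all genes), 0 of 10 at day 12 (7.82%), and 0 of 10 at day 21 (3.12%). At an unadjusted p under 0.05, the numbers of members were 0, 2, 2, and 2 against 20.9, 26.6, 24.5, and 18.01% of all genes. DESeq2 also called 0 members at each day. Median log2 fold changes (HNKO minus WT) of the 10 members were 0.19, -0.01, -0.07, and 0.09, and those of all tested genes were 0.01, -0.01, 0.00, and -0.01. The interaction of genotype with day was called for 0 of 10 members and 0% of all genes. At an unadjusted p under 0.05 it held 0 members and 966 genes. HNKO and WT livers were fully separated in 1 of 10 members at day 6 (Hspa1b) and in 1 of 10 at day 21 (Hsp90ab1), where 12.8 and 13.9% of all genes were, and in 0 of 10 at days 3 and 12 (4.11 and 4.79% of all genes).

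**Figure D1:**
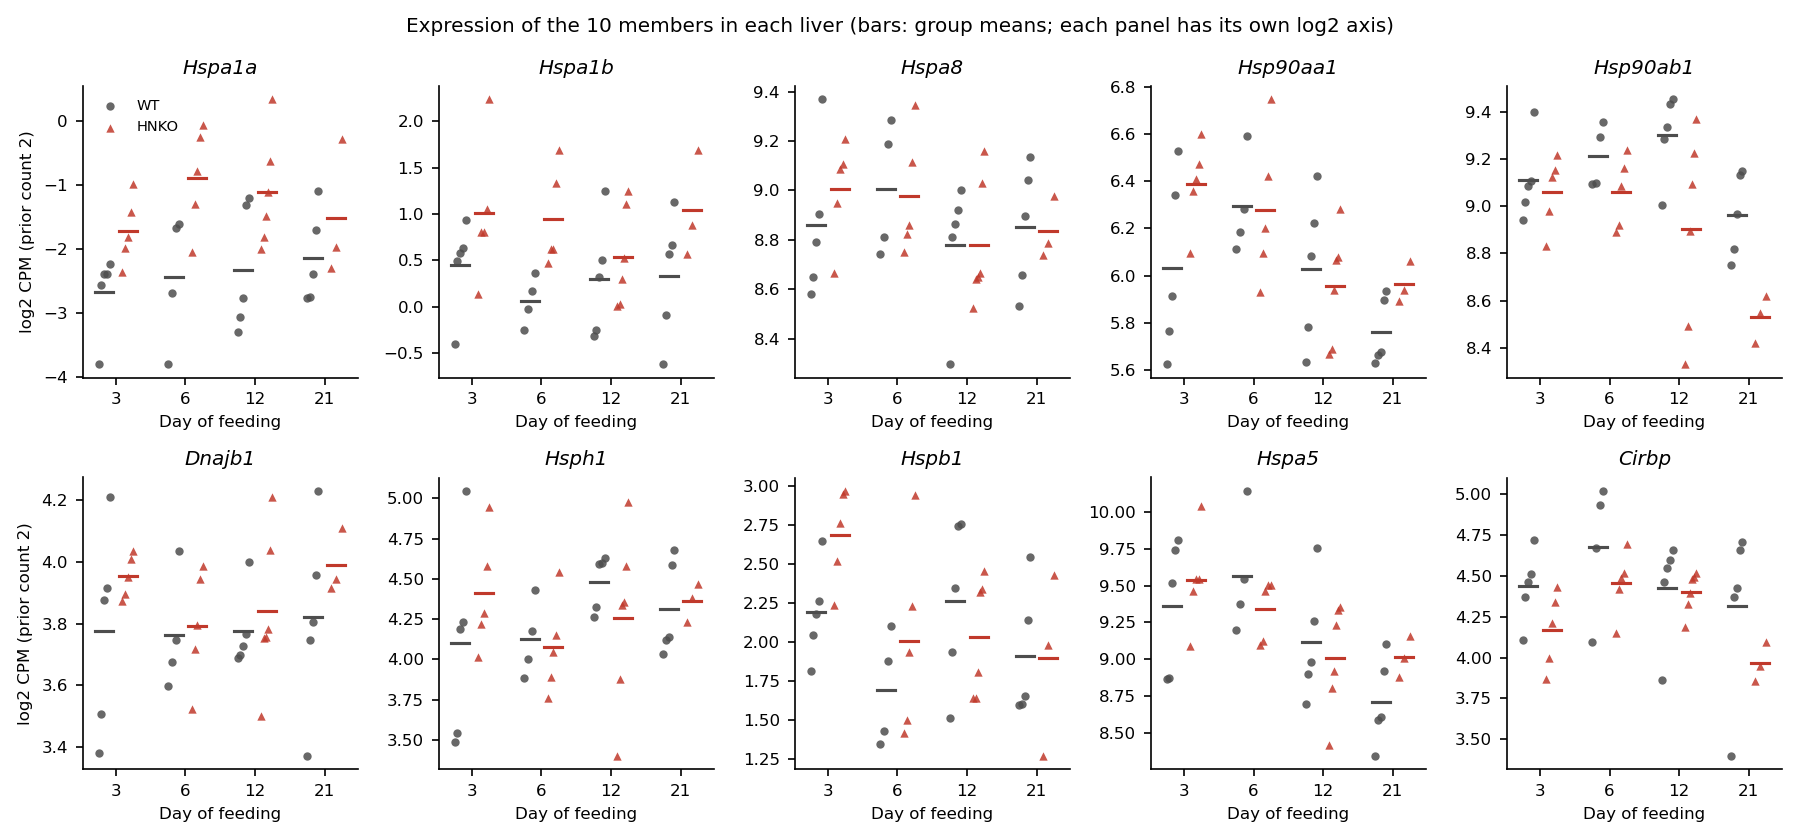
Log2 CPM (y axis, prior count 2, a separate axis for each gene) of the 10 members in each of the 38 livers by day of PD feeding (x axis), with WT as gray circles, HNKO as red triangles, and bars at group means. HNKO and WT livers are fully separated for Hspa1b at day 6, where the 5 HNKO values lie above 0.37, and for Hsp90ab1 at day 21, where the 3 HNKO values lie below 8.75. Of all genes, 12.8 and 13.9% are fully separated at these days.

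Hspa1b, the better measured of the inducible HSP70 genes, had all HNKO livers above all WT livers at day 6. On that day 12.8% of all genes were fully separated in either direction. At day 6, log2 CPM was -0.03, -0.25, 0.37, and 0.17 in the 4 WT livers and 0.48, 0.62, 1.69, 1.33, and 0.62 in the 5 HNKO livers. The difference was 0.99 ± 0.42 on the log2 scale (SE), and the adjusted p was 0.116. At day 3, the WT livers had 0.58, -0.41, 0.94, 0.50, and 0.64 and the HNKO livers 0.80, 0.81, 0.13, 1.05, and 2.24. Only library 23, at 2.24, and library 22, at 1.05, exceeded every WT liver, and the difference of 0.70 ± 0.38 (SE, adjusted p = 0.292) became 0.25 without library 23. At day 12, the 6 HNKO livers ranged from 0.01 to 1.25 with a median of 0.41 and the 5 WT livers from -0.32 to 1.25 with a median of 0.32, which gave 0.19 ± 0.36 (SE, adjusted p = 0.803). At day 21, the HNKO livers had 1.69, 0.88, and 0.57 and the WT livers -0.09, 0.67, -0.62, 1.13, and 0.57. The difference of 0.73 ± 0.43 (SE, adjusted p = 0.381) became 0.33 without HNKO library 37, 0.42 with the label series (the run of library numbers) as a covariate, and 1.19 (adjusted p = 0.0613) with the 2 libraries that failed quality control (the failed libraries) added.

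Hspa1a encodes nearly the same protein as Hspa1b and lies beside it on chromosome 17. It was close to the limit of detection, with a median of 5 counts per library and a range of 0 to 38. Its highest counts at days 3, 6, 12, and 21 were 4, 5, 12, and 9 in WT and 10, 38, 23, and 23 in HNKO livers. With a minimum count of 10, Hspa1a thus passed the filter on low counts chiefly through HNKO livers, the group where it was higher. Its differences are not independent of that selection. At day 6, the WT livers had 0, 5, 5, and 2 counts and the HNKO livers 17, 15, 38, 3, and 12. In log2 CPM, 4 of the 5 HNKO livers were above all WT livers, and the difference was 1.93 ± 0.73 (SE, adjusted p = 0.0776). The log2 fold changes at days 3, 12, and 21 were 1.31, 1.36, and 1.10, with adjusted p of 0.328, 0.165, and 0.457. The day 12 value came from 1 to 12 counts in WT and 5 to 23 counts in HNKO livers and became 0.91 without HNKO library 12, which held 23 counts. The day 21 value became -0.04 without HNKO library 37, which also held 23 counts, and 0.49 with the 2 libraries that failed quality control added. Of the 51-base stretches of Hspa1a (the read length), 66.1% also occur in other genes and 58.6% occur in Hspa1b, so that the reads of the pair cannot be told apart with certainty. With both genes summed, the day 6 log2 fold change was 1.15 ± 0.43 (SE, adjusted p = 0.0755), and the others were 0.76, 0.40, and 0.77 (adjusted p of 0.268, 0.542, and 0.372).

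The call for Hspa1a depended on the setting. At day 6 it was called with the newer edgeR computation of the dispersion (adjusted p = 0.0433) and with a clock score as a covariate (adjusted p = 0.0483), and over all settings other than leaving out a library, these included, its adjusted p ranged from 0.0433 to 0.166. At day 12 it was called with the clock score (log2 fold change 1.92, adjusted p = 0.0280, range over alternatives 0.0280 to 0.296). The clock score, the mean log2 CPM of Arntl, Npas2, and Clock minus that of Nr1d1, Nr1d2, Dbp, Tef, Per3, and Ciart, varies with the time of day. Its HNKO mean minus WT mean was 1.10, -0.12, -1.84, and 0.30 at days 3, 6, 12, and 21, with adjusted p of 0.0733, 0.960, 0.268, and 0.801 (exact permutation tests over 24 comparisons). Across the 38 livers with group means removed, the Pearson r with the clock score was 0.436 for Hspa1a and 0.547 for Hspa1b. Among the other members it ran from -0.386 for Hsp90ab1 to 0.474 for Hspb1, and it was 0.179 for Cirbp. Hspa1b had r of 0.578 with the summed leukocyte markers and 0.476 with the summed bile duct markers. The part of time of day and of cell makeup in these differences was not tested.

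Hspa8, the constitutive HSP70 that folds new proteins and uncoats clathrin vesicles, had log2 fold changes between -0.03 and 0.13. Log2 CPM ranged from 8.58 to 9.37 in WT and 8.67 to 9.21 in HNKO livers at day 3, from 8.74 to 9.28 and 8.75 to 9.34 at day 6, from 8.30 to 9.001 and 8.53 to 9.16 at day 12, and from 8.53 to 9.13 and 8.74 to 8.98 at day 21. The groups overlapped at every day. The widest 95% interval, at day 21, ran from -0.40 to 0.34. Of its 51-base stretches, 39.1% also occur in other genes, and those that shared most had medians of 1 to 7 counts.

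Hsp90ab1, the constitutive cytosolic HSP90, which matures kinases and steroid receptors, was lower in HNKO than WT livers at days 12 and 21, by differences that did not pass the test. At day 21, log2 CPM was 8.82, 9.13, 9.15, 8.75, and 8.96 in WT and 8.42, 8.55, and 8.62 in HNKO livers. All 3 HNKO livers were below all 5 WT livers, on a day when 13.9% of all genes were fully separated in either direction. The log2 fold change was -0.44 ± 0.16 (SE) and the adjusted p 0.130. At day 12, the WT livers had 9.43, 9.33, 9.45, 9.01, and 9.28, and the HNKO livers 9.22, 9.37, 9.09, 8.90, 8.50, and 8.33. Of 6 HNKO livers, 3 were below all WT livers, and the difference was -0.36 ± 0.13 (SE, adjusted p = 0.0858). At day 6, 3 of 5 HNKO livers were below all WT livers and the difference was -0.15, which became -0.09 without HNKO library 30. At day 3 it was -0.05. The day 12 difference was called once the label series was a covariate (-0.35, adjusted p = 0.0351), with the clock score (-0.45, adjusted p = 0.0154), and without HNKO library 12, the highest of its group (-0.46, adjusted p = 0.0331), and over all settings other than leaving out a library, these included, its adjusted p ranged from 0.0154 to 0.291. The label series is the run of library numbers, from 1 to 21 and again from 22 to 41, each of which passes through all 4 days. All 3 HNKO livers of day 21 belong to the second run, so that at day 21 the comparison within it rests on those 3 and 2 WT livers (8.75 and 8.96). Fitted with that covariate, the day 21 difference of Hsp90ab1 was -0.28.

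Hsp90aa1, the stress-inducible HSP90, was higher in HNKO than WT livers at day 3 by 0.32 ± 0.16 on the log2 scale (SE, adjusted p = 0.244). The WT livers had 5.76, 6.53, 5.91, 5.62, and 6.34, and the HNKO livers 6.41, 6.47, 6.36, 6.10, and 6.601. The WT livers were spread out, and 1 of 5 HNKO livers was above all of them. The log2 fold changes of days 6, 12, and 21 were 0.00, -0.09, and 0.20. Of the 51-base stretches of Hsp90aa1, 47.3% also occur in pseudogenes, of which Gm12346 had a median of 16 counts.

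The co-chaperones Dnajb1, which delivers unfolded proteins to HSP70 and stimulates its ATPase, and Hsph1, the HSP110 that exchanges its nucleotide, were not called at any day. The log2 fold changes of Dnajb1 were 0.15 (0.05 without WT library 1 and 0.27 without WT library 5), 0.03, 0.07, and 0.15 (adjusted p of 0.587 to 0.932), with 95% intervals from -0.27 to 0.47 over the 4 days. Those of Hsph1 were 0.23, -0.03, -0.16, and 0.03 (adjusted p of 0.621 to 0.974), with 95% intervals from -0.62 to 0.72 over the 4 days. Dnajb1 values ran from 3.37 to 4.23 log2 CPM in WT and from 3.4995 to 4.21 in HNKO livers. Hsph1 was more variable, from 3.49 to 5.05 in WT livers and from 3.40 to 4.98 in HNKO livers.

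Hspb1, the small heat shock protein that holds unfolding proteins and binds actin, had its highest levels in HNKO livers of day 3. Log2 CPM was 1.81, 2.65, 2.18, 2.04, and 2.26 in WT and 2.97, 2.76, 2.52, 2.24, and 2.95 in HNKO livers, and 3 of 5 HNKO livers exceeded every WT liver. The mean difference was 0.50 ± 0.27 on that scale (SE, adjusted p = 0.295). At day 6 it was 0.41 ± 0.30 (SE, adjusted p = 0.414), which became 0.10 without HNKO library 29, a liver with 326 Hspb1 counts where the other 4 HNKO livers had 57 to 110. At days 12 and 21 the values were -0.27 and 0.01, and the former ran from -0.42 without WT library 16 to -0.15 without WT library 14 and was -0.015 with the clock score as a covariate. Across the 38 livers with group means removed, Hspb1 had a Pearson r of -0.753 with the summed hepatocyte markers, 0.623 with the bile duct markers, and 0.586 with the stellate cell markers, and their part in its level was not tested. Of its 51-base stretches, 49.9% also occur in other genes, chiefly Hsp25-ps1 and Gm9817, both with a median of 0 counts.

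Hspa5, the ER chaperone BiP, had log2 fold changes of 0.15, -0.26, -0.12, and 0.28 (adjusted p of 0.505 to 0.770), none of them called. The day 21 value was 0.09 with the 2 failed libraries added. WT means of log2 CPM were 9.36, 9.57, 9.12, and 8.72 at days 3, 6, 12, and 21, and HNKO means were 9.54, 9.34, 9.01, and 9.02. At day 6, the WT livers had 9.37, 9.20, 9.55, and 10.14 and the HNKO livers 9.10, 9.47, 9.50, 9.51, and 9.12, and the value of -0.26 became -0.03 without WT library 28, the highest liver.

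**Figure D2:**
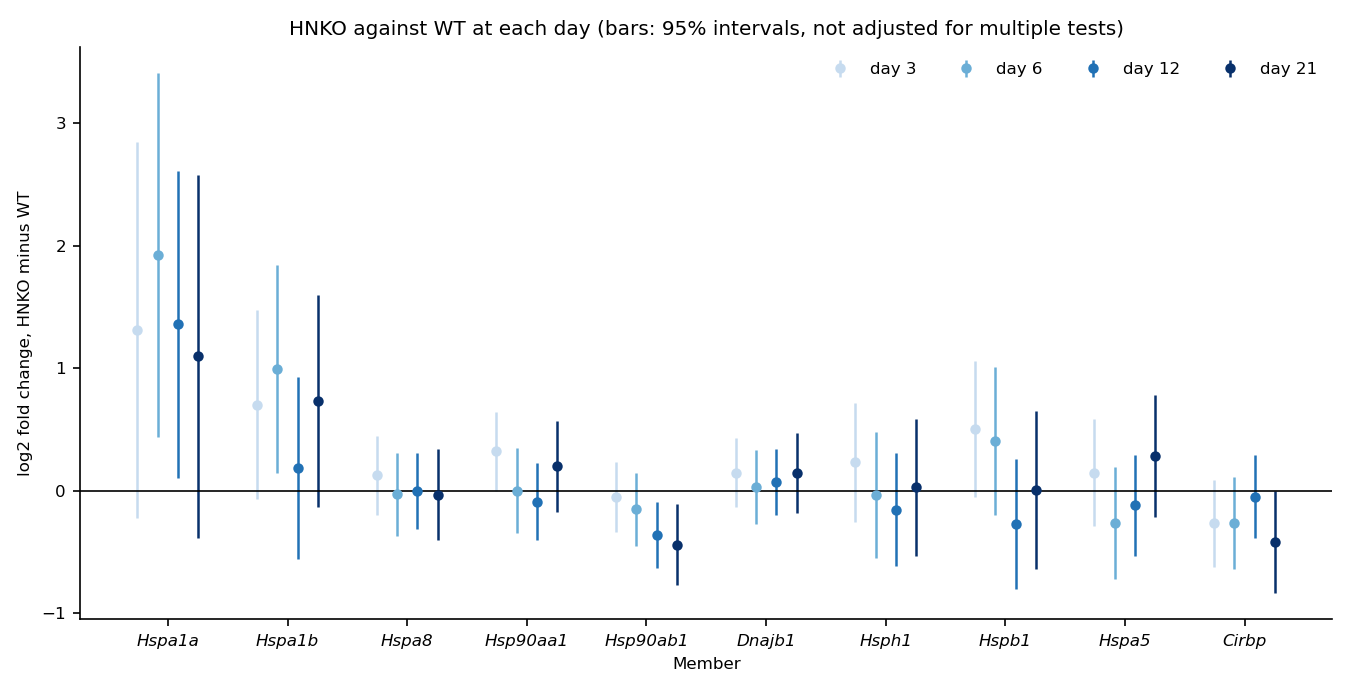
Log2 fold change of each member (y axis, HNKO minus WT), with 4 points per gene from day 3 (palest) to day 21 (darkest) and bars for 95% intervals that are not adjusted for multiple tests. The intervals of Hspa1a and Hspa1b at day 6 (0.44 to 3.41 and 0.14 to 1.85) of Hspa1a at day 12 (0.11 to 2.61), of Hsp90ab1 at days 12 and 21 (-0.63 to -0.09 and -0.77 to -0.11), and, by the narrowest margin, of Cirbp at day 21 lie to 1 side of 0, and those of Hspa8 and Dnajb1 are among the narrowest.

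Cirbp, the cold-inducible RNA binding protein, was lower in HNKO than WT livers at each of the 4 days by values that did not pass the test. The log2 fold changes were -0.26, -0.26, -0.05, and -0.42, with adjusted p of 0.408, 0.397, 0.895, and 0.278. With 1 library left out, the day 6 value ran from -0.42 (without WT library 10) to -0.14 (without WT library 27). At day 21, the WT livers had 4.66, 4.43, 4.71, 3.40, and 4.37 and the HNKO livers 3.86, 3.95, and 4.09. The 3 HNKO livers lay between WT library 39, at 3.40, and the other 4 WT livers, and without library 39 the difference was -0.58 (adjusted p = 0.0628). Rbm3, the other cold-inducible RNA binding protein, moved the opposite way, with log2 fold changes of 0.12, 0.26, 0.30, and 0.13 (adjusted p of 0.103 to 0.681 at the single days).

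Averaged over the 4 days with equal weight, a contrast added after it was seen that no member was called at any day, 4 of 10 members were called, against 36.4% of all tested genes. Hspa1a and Hspa1b rose by 1.42 ± 0.36 and 0.65 ± 0.20 on the log2 scale (SE, adjusted p = 0.00182 and 0.00960), and Hsp90ab1 and Cirbp fell by 0.25 ± 0.07 and 0.25 ± 0.09 (adjusted p = 0.00682 and 0.0328). The call of Hspa1a is limited, since it passed the filter on low counts chiefly through HNKO livers and was not tested with at least 10 counts in every library. The summed Hspa1a and Hspa1b counts rose by 0.77 ± 0.21 (SE, adjusted p = 0.00339). The share of members called was near that of all genes. The call of Cirbp was lost when any 1 of 10 libraries was left out (WT 19, 21, 26, 27, and 28 and HNKO 23, 29, 35, 37, and 38), with adjusted p up to 0.0863, whereas those of Hspa1a, Hspa1b, and Hsp90ab1 held without any 1 library. Hspa8, Hsph1, and Hspa5 had mean log2 fold changes of 0.02, 0.02, and 0.01, and their 95% intervals were -0.15 to 0.18, -0.23 to 0.27, and -0.21 to 0.24. Rbm3 rose by 0.20 in the same contrast (adjusted p = 0.0114).

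Over the days of feeding, 0 of 10 members were called in WT livers (5.84% of all genes) and 0 of 10 in HNKO livers (7.90%) by the test of any difference among the 4 days. At an unadjusted p under 0.05 there were 2 members in WT (Hsp90aa1 and Hspa5) and 3 in HNKO livers (Hsp90aa1, Hsp90ab1, and Hspb1). Of all genes, 21.2% in WT and 22.9% in HNKO livers met that limit. Hspa5 in WT livers was closest to the threshold (adjusted p = 0.0527). It was called by DESeq2, with RLE size factors, with at least 10 counts in every library, with the edgeR 4 computation, with the label series or the clock score as a covariate, and without any 1 of 6 WT libraries. The mean log2 CPM of Hsp90ab1 in HNKO livers went from 9.06 at days 3 and 6 to 8.90 at day 12 and 8.53 at day 21, while in WT livers it was 9.11, 9.21, 9.30, and 8.96.

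The spread between livers of one group differed among the members. The pooled SD of log2 CPM within the 8 groups was 0.83 for Hspa1a, 0.59 for Hspa1b, 0.45 for Hspb1, 0.39 for Hsph1, and 0.35 for Hspa5. It was 0.30 for Cirbp, 0.26 for Hsp90aa1, 0.25 for Hspa8, and 0.22 for both Dnajb1 and Hsp90ab1. With the 2 failed libraries added, the SD of Hspb1 was 0.72, the percentile among all genes was 56.7 for Hspa1b in place of 81.9, 45.6 for Hsph1 in place of 60.2, and 42.9 for Hspa5 in place of 54.5, and with a prior count of 0.5 the SD of Hspa1a was 1.17. Each of the 10 members was above the median SD of the expression decile it belongs to, with a percentile within the decile from 59.7 for Hsp90ab1 to 93.6 for Hsph1. Among all genes, whose median SD was 0.32, 5 of 10 members were below the median, with percentiles of 32.8 for Hsp90ab1, 33 for Dnajb1, 39.05 for Hspa8, 40.5 for Hsp90aa1, and 47.3 for Cirbp. Hspa1a was at 95.3 among all genes and 81.3 within its decile. In 5 members, namely Hspa8, Hsp90aa1, Dnajb1, Hsph1, and Hspa5, the group with the largest SD was WT at day 3. Cirbp varied more between WT livers (pooled SD 0.39) than between HNKO livers (0.18), a difference that was not tested.

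**Figure D3:**
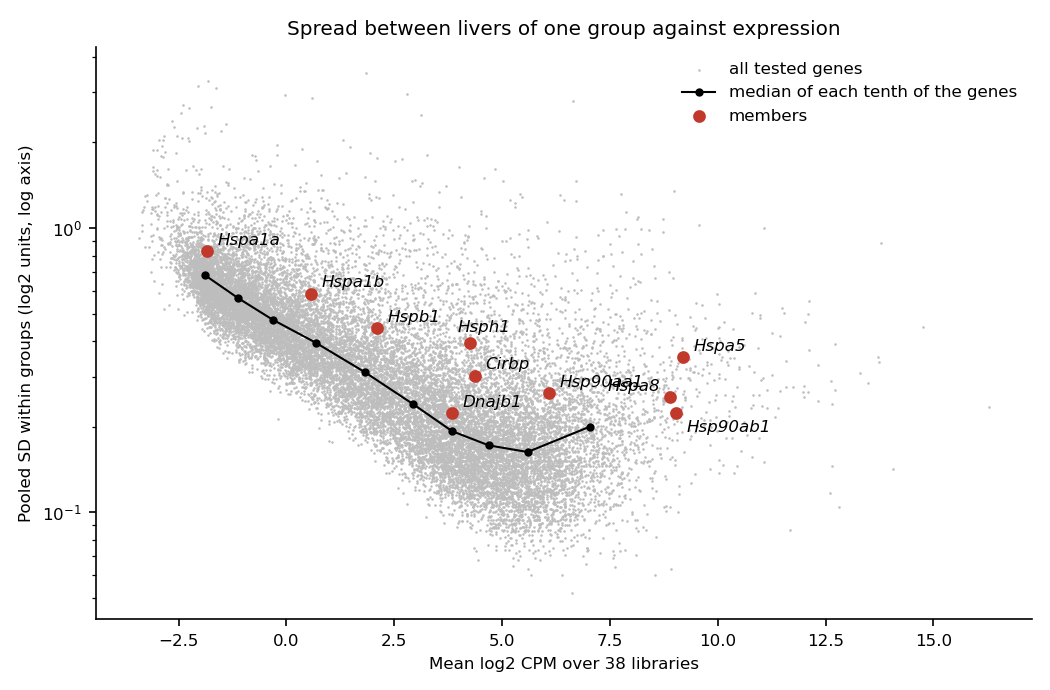
Pooled SD of log2 CPM within groups (y axis, log scale) against mean log2 CPM (x axis) for all 20297 tested genes in gray, with the median of each expression decile joined in black and the 10 members in red. All 10 members lie above the black line, from 0.22 for Hsp90ab1 and Dnajb1 to 0.83 for Hspa1a.

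In WT library 5 of day 3, 7 members had the highest value of the 5 WT livers of day 3 (Hspa8, Hsp90aa1, Hsp90ab1, Dnajb1, Hsph1, Hspb1, and Hspa5), and the other 3 (Hspa1a, Hspa1b, and Cirbp) had the lowest. Its Hsph1 was 5.05 log2 CPM where the other 4 had 3.49 to 4.23. Its Hspa1a and Hspa1b had 0 and 15 counts, the fewest of their group. Other livers held many extremes too. WT library 10 of day 6 had 5 members highest and 4 lowest of 4 livers. HNKO library 12 of day 12 had 6 highest and 0 lowest of 6 livers, and HNKO library 37 of day 21 had 3 highest and 6 lowest of 3 livers. Extremes were not counted over all genes.

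Some pairs of members varied together among livers of one group. Of the 45 pairs of members, 8 had an adjusted p under 0.05 (6 positive and 2 negative, permutation tests of Pearson r over 38 libraries with group means removed), and 6 of them also passed by Spearman's rho. Pairs of other genes were not counted. The strongest were Hspa8 with Hsp90ab1 (r = 0.676, rho = 0.660, permutation p = 1e-05, adjusted p = 0.00045, where 1e-05 is the smallest p these permutations can give) and Hspa8 with Hsph1 (r = 0.673, rho = 0.631, permutation p = 4e-05, adjusted p = 0.0009). Without the 2 libraries farthest from the median of Hspa8, r was 0.622 and 0.619. Hsp90aa1 with Hspb1 had r = 0.642 and rho = 0.603 (permutation p = 0.00012, adjusted p = 0.00135), and r = 0.563 without its 2 farthest libraries and 0.387 (adjusted p = 0.0264) with the 2 failed libraries added. Hsp90ab1 with Hsph1 had r = 0.599 and rho = 0.480 (permutation p = 0.00139, adjusted p = 0.0104), and r = 0.420 without 2 libraries. Hsp90aa1 with Hsp90ab1 had r = 0.507 and rho = 0.563 (permutation p = 0.00209, adjusted p = 0.0134), and r = 0.465 without 2 libraries, but within the label series r was 0.457 (adjusted p = 0.128). Hspa1a and Hspa1b had r = 0.632 and rho = 0.628 (permutation p = 9e-05, adjusted p = 0.00135) and share most of their sequence, and r was 0.641 without the 2 farthest libraries but 0.363 (adjusted p = 0.152) with the 2 libraries that failed quality control added.

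**Figure D4:**
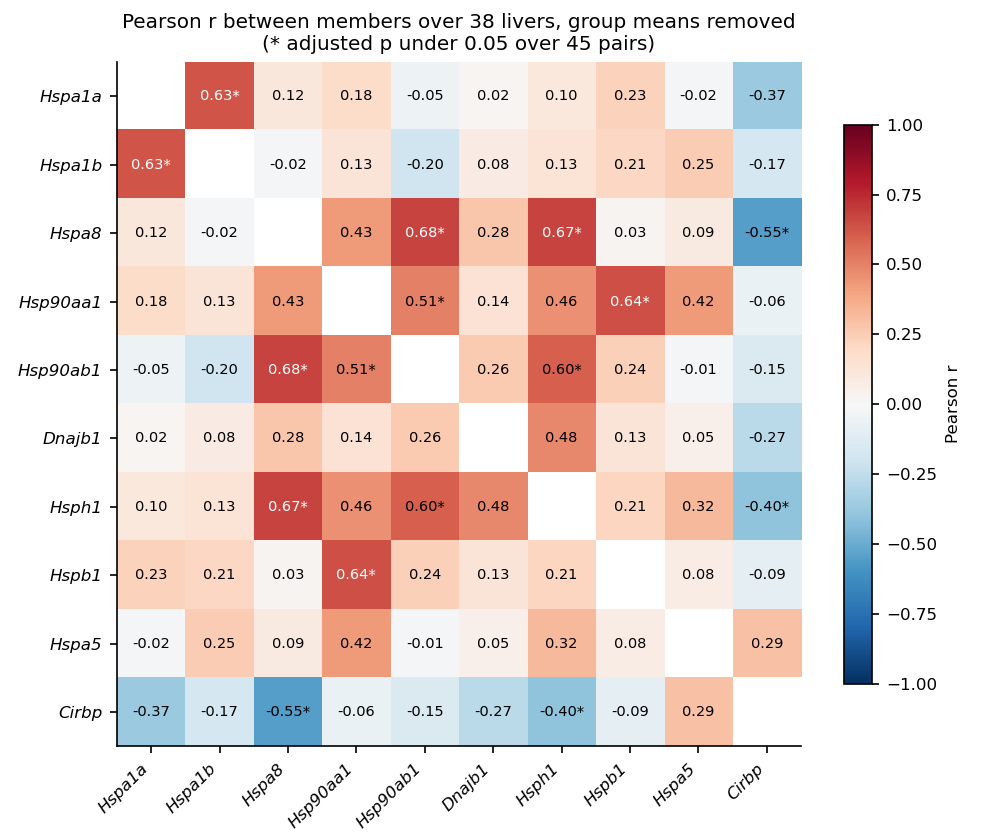
Pearson r between the deviations of the 10 members from their group means over 38 livers, from -1 (blue) to 1 (red), with a star where the adjusted p over 45 pairs is under 0.05. The cytosolic genes Hspa8, Hsp90ab1, and Hsph1 form a block of r from 0.60 to 0.68, and Hspa8 and Hsph1 are negative with Cirbp.

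Cirbp was negatively correlated with Hspa8 and Hsph1. Its r was -0.553 with Hspa8 (rho = -0.536, permutation p = 0.00121, adjusted p = 0.0104, r = -0.539 without 2 libraries) and -0.404 with Hsph1 (rho = -0.388, permutation p = 0.00366, adjusted p = 0.0206, r = -0.374 without 2 libraries). With Hspa8, r was -0.667 in the 19 WT libraries and -0.313 in the 19 HNKO libraries, and the difference was not tested. Within the label series, with the mean of each group and series removed, r with Hspa8 was -0.312 (adjusted p = 0.244) and with Hsph1 -0.390 (adjusted p = 0.128), so that neither held there. Across the same 38 livers with group means removed, r with the log2 total counts of the library was -0.367 for Hspa8, -0.336 for Hsph1, and 0.345 for Cirbp, and the part of depth in these pairs was not tested. Hspa8 with Hsph1 (r = 0.843) and Hspa8 with Hsp90ab1 (r = 0.731) did hold within the series (permutation tests, adjusted p = 0.00135 and 0.00562). The r of Hsp90ab1 with the log2 total counts was -0.100, and the part of depth in these positive pairs was not tested either.

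**Figure D5:**
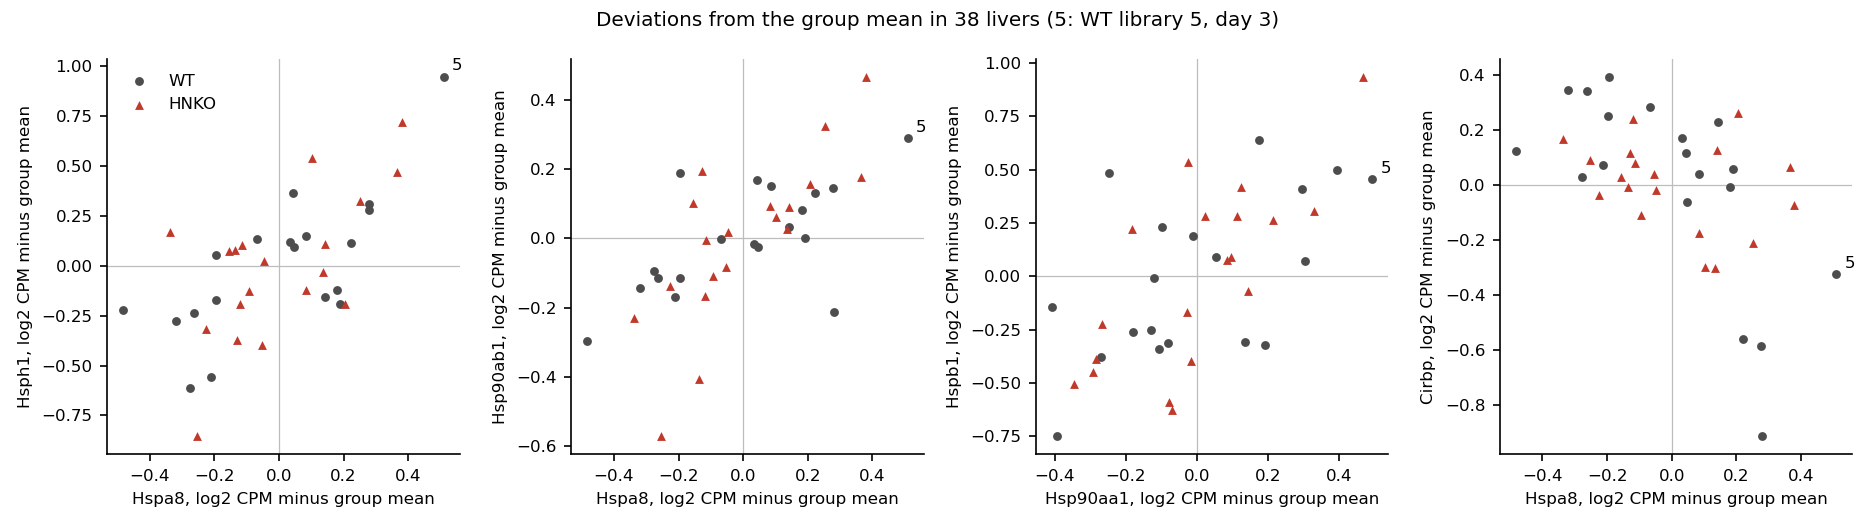
Log2 CPM minus the group mean of 1 member (y axis) against another (x axis) in 38 livers, with WT as gray circles, HNKO as red triangles, and WT library 5 marked. Hsph1 and Hsp90ab1 rise with Hspa8 and Hspb1 rises with Hsp90aa1 (r = 0.673, 0.676, and 0.642), whereas Cirbp falls (r = -0.553).

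Hspa5 had r of 0.09 to Hspa8, -0.01 to Hsp90ab1, and 0.42 to Hsp90aa1 (adjusted p = 0.110 for the last). The genes most like Hspa5 over the 38 livers were Manf (r = 0.919), Sec23b (0.917), Hyou1 (0.852), Hspa13 (0.831), and Scfd1 (0.815), where the median absolute r of all tested genes with Hspa5 was 0.149 and the 99th percentile 0.539. Manf is a secreted ER stress protein, Hyou1 and Hspa13 are HSP70-type chaperones of the ER, and Sec23b and Scfd1 act in transport from the ER to the Golgi. The genes most like Hspa1b were P4ha1 (r = 0.822), Heatr5a (0.776), and Jag1 (0.756), and the most opposite was Aadat (-0.850). For Cirbp the highest was N6amt1 (0.689) and the most opposite 1700061I17Rik (-0.720). The median and 99th percentile of the absolute r of all tested genes were 0.228 and 0.663 for Hspa1b and 0.147 and 0.504 for Cirbp. These are descriptions over the same 38 libraries, with no test.

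Other genes of the pathways were counted over lists chosen by name. Of 33 further cytosolic chaperone and HSF1 pathway genes, 3 rose and 0 fell at day 3, 1 rose and 4 fell at day 6, 1 rose and 5 fell at day 12, and 0 rose and 1 fell at day 21, where 4.66, 12.8, 7.82, and 3.12% of all genes were called in either direction. The list had median log2 fold changes of 0.01, -0.09, -0.18, and -0.04. Fkbp4, an HSP90 co-chaperone of steroid receptors, fell by 0.54 ± 0.13 at day 6, 0.51 ± 0.12 at day 12, and 0.55 ± 0.15 at day 21 on the log2 scale (SE, adjusted p = 0.00528, 0.00850, and 0.0326). Bag1, a nucleotide exchange factor of HSP70, fell by 0.32 and 0.31 at days 6 and 12 (adjusted p = 0.00842 and 0.0104), and Dnajb2 fell by 0.43 at day 6 (adjusted p = 0.0148) and Dnajb6 by 0.39 at days 6 and 12 (adjusted p = 0.0369 and 0.0312). At day 3 the genes that rose were Hspa2 (1.12, adjusted p = 0.0297), Bag3 (0.69, adjusted p = 0.0459), an HSF1 target and HSP70 co-chaperone, and Dnaja4 (0.53, adjusted p = 0.0476). Hspa2 also rose at day 12 (1.09, adjusted p = 0.0200), and Serpinh1, the collagen chaperone of collagen-making cells, rose at day 6 (1.32, adjusted p = 0.00917). At day 6, 4 of 5 stellate cell markers rose, and their summed level was 8.78 to 10.1 log2 in HNKO and 8.05 to 8.13 in WT livers. Of the same markers, 4, 1, and 3 rose at days 3, 12, and 21, when Serpinh1 was not called. The part of these cells in its level was not tested.

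Of 14 chaperonins and mitochondrial chaperones, 0 rose and 3 fell at days 6 and 12 (12.8 and 7.82% of all genes were called) and none were called at days 3 and 21. Dnaja3 fell at both days (by 0.41 and 0.32, adjusted p = 0.00404 and 0.0210), as did Hspe1, the mitochondrial HSP10 (by 0.40 and 0.39, adjusted p = 0.0361 and 0.0328). Trap1, the mitochondrial HSP90, fell by 0.37 at day 6 (adjusted p = 0.00349), and Hspd1, the mitochondrial HSP60, fell by 0.47 at day 12 (adjusted p = 0.0224). Of 25 ER chaperone and unfolded protein response genes, 0 were called at days 3 and 21, 1 rose and 1 fell at day 6, and 1 fell at day 12, so that 2 of 25 and 1 of 25 were called where 12.8 and 7.82% of all genes were. Those were Xbp1, a transcription factor of the response (0.45, adjusted p = 0.0492), Sel1l, an adaptor of ER-associated degradation (-0.32, adjusted p = 0.0310), and Hsp90b1, the ER HSP90 (-0.41, adjusted p = 0.0366). Averaged over the 4 days, 4 of 33 cytosolic genes rose and 10 fell, 0 of 14 chaperonins and mitochondrial chaperones rose and 7 fell, and 0 of 25 ER genes rose and 4 fell, against 36.4% of all genes called. Over the days of feeding, where 5.84% of all genes were called in WT and 7.90% in HNKO livers, the 33 cytosolic genes held 3 called in WT (Bag3, Fkbp4, and Bag1) and 4 in HNKO livers (Dnaja4, Ahsa1, Fkbp4, and Cdc37), and the 25 ER genes held 3 in WT (Pdia4, Creld2, and Sil1) and 4 in HNKO livers (Calr, Pdia4, Dnajb11, and Creld2). The 14 chaperonins and mitochondrial chaperones held 0 in WT and 0 in HNKO livers.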

How the data were processed

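Whole-liver RNA was depleted of rRNA, and the authors aligned 51-bp paired reads to GRCm38 with STAR 2.7.2b and counted them per GENCODE M22 gene with featureCounts 1.6.4. The deposited values are these raw counts, not normalized. Whether strand was used in counting is not given in the sources used here. Per the labels, 40 libraries fall into 8 groups, of which 2 HNKO day 21 libraries failed quality control and were left out, leaving 38. The members and gene lists were chosen with earlier results of these data known.

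Counts were tested with edgeR 4.0.16 (R 4.3.3): TMM scaling, filterByExpr (minimum count 10), 1 mean per genotype and day, the quasi-likelihood test, and Benjamini-Hochberg adjustment over 20297 genes (threshold 0.05). Log2 CPM used a prior count of 2. DESeq2 1.42.0, other filters and scalings, covariates, and leaving out each library were alternatives. Member correlations used deviations from group means and permutation tests with Python 3.11.15 and scipy 1.17.1. The edgeR steps were tested on simulated data. Gene coordinates came from GENCODE M21 of the same build and promoters from RefSeq. Pathway genes were named only when called, as a rule at most 3 in each direction per list and day. The 4 cytosolic genes that fell at day 6 were all named. Each library is 1 liver. Counting precision was limited for Hspa1a, with a median of 5 counts. Of 55487 genes, 55394 matched a symbol.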

Additional observations from a re-analysis of the deposited data

Results flagged for a closer look

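Over the 10 members and the 7 groups of 4 to 6 livers, in 5 of 70 cases 1 library stood apart from the rest by Dixon's criterion, where chance gives about 1 in 20. These were Hspa1a in WT library 5 at day 3 (-3.80 log2 CPM, 0 counts), Hspa8 in WT library 33 at day 12 (8.30, low), Dnajb1 in WT library 34 at day 12 (4.00045, high), and Cirbp in WT library 14 at day 12 (3.86, low) and WT library 39 at day 21 (3.40, low).

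The 2 HNKO day 21 libraries left out for failed quality control held member levels above and below all 5 WT livers of that day. Levels in this paragraph were scaled over all 40 libraries together, so that WT values differ slightly from those scaled over 38. Hspa1b was 1.73 and 2.39 log2 CPM in libraries 17 and 18 (highest WT 1.15). Dnajb1 was 4.83 and 4.43 in the same libraries (highest WT 4.23). Hsph1 was 4.83 in library 17 (highest WT 4.68), and Hspb1 was 2.95 in library 18 (highest WT 2.55). Below all WT livers were Hspb1 in library 17 (-1.39 with 4 counts, lowest WT 1.602), Hsp90ab1 in library 17 (8.69, lowest WT 8.77), Cirbp in library 18 (3.13, lowest WT 3.42), and Hspa1a, with 0 counts in both.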

How the results depend on the processing

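No paired analysis was possible because library numbers are not shared between groups. The number of members called was 0 at days 3 and 21 and for the interaction under each alternative run. At day 6 it became 1 (Hspa1a) with the edgeR 4 computation and with the clock score. At day 12 it became 1 (Hsp90ab1) with the label series, 2 (Hspa1a and Hsp90ab1) with the clock score, and 0 to 1 with 1 library left out (1 without HNKO library 12). The day effect in WT became 1 (Hspa5) with RLE size factors, DESeq2, at least 10 counts in every library, the edgeR 4 computation, the label series, and the clock score, and 0 to 1 with 1 library left out (1 without WT 1, 10, 20, 25, 33, or 34). The day effect in HNKO became 1 (Hsp90ab1) with the clock score, and 0 to 1 with 1 library left out (1 without HNKO 36). The 4 members called on average over days became 2 with at least 10 counts in every library, where Hspa1a was not tested and Cirbp lost its call (adjusted p = 0.0517), as it also did with no filter (0.0576). The 8 correlated pairs became 5 within the label series and 7 with all 40 libraries, where Hspa1a with Hspa1b and Hsph1 with Cirbp were lost (r = 0.363 and -0.332) and Dnajb1 with Hsph1 was gained (0.486). With 1 library left out, the Hspa1a difference at day 21 ran from -0.042 (without HNKO 37) to 1.57. Of 22 fold changes within 1 SE of 0, 17 changed sign under an alternative and 0 crossed the threshold. Apart from the settings that test fewer genes or livers, the cause was not tested. Low counts limit Hspa1a, and 3 HNKO livers limit day 21.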
